A study of Caenorhabditis elegans with 2 samples.

Results

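Of the 30000 regions that the authors' caller listed from pooled SNPC-1.3 ChIP-seq, 429 were promoter regions of protein-coding genes on the X chromosome. A region belonged here when its summit lay within 500 bp of the 5′ end of a protein-coding gene on X. In addition, no short RNA gene lay within 250 bp. Short RNA genes here are tRNA, snRNA and snoRNA genes and those under 500 bp annotated simply as ncRNA. Genes annotated as piRNA or miRNA did not exclude a region. The same rule gave 6723 promoter regions on the 5 autosomes. With piRNA and miRNA genes left out as well, 428 regions remained on X and 6529 on the autosomes. The 429 regions lay at 418 of the 2731 protein-coding genes of X, and 17 of them were near more than 1 gene. Only 3 of the 429 were among the 1676 regions that passed the threshold of the irreproducible discovery rate (IDR) and are called IDR peaks, against 757 of the 6723 on the autosomes.

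Chromatin was immunoprecipitated with an antibody against GFP from whole young adult hermaphrodites of Caenorhabditis elegans strain YL485, a transgenic line that stably expresses SNPC-1.3 (gene F08F3.9) with a GFP and FLAG tag at its C terminus. There was 1 group, of 2 biological replicates that share the strain and 1 control, and no second genotype, treatment, time or sex, and the age in days is labelled unknown. Each replicate gave a list of 30000 candidate regions with a signal value from the authors' caller, and both together gave the pooled list and the IDR peaks. The sources used here do not give the promoter of the transgene or the tissues in which it is expressed, and in whole animals binding in the germline and in the soma cannot be told apart. Read depth is unknown, because the lists hold no counts.

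SNPC-1.3 resembles a subunit of SNAPc, which brings RNA polymerases to small nuclear RNA genes and, in nematodes, to piRNA genes, and it drives piRNA transcription in the germline of males. The X chromosome of C. elegans is regulated as a whole: a hermaphrodite carries a pair of X chromosomes, as it does of each autosome, the X is kept largely silent through much of the germline, and genes used in the germline are scarce on it. In the somatic cells of hermaphrodites the dosage compensation complex binds along X and lowers its transcription.

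The 3 X promoter regions that were IDR peaks are printed here because, under the rule used, the X contribution at promoters rests on them. Another 13 X IDR peaks within 500 bp of a protein-coding 5′ end were left out by the rule. Each of those had a short RNA gene within 250 bp. Each line gives 201 bp of the plus strand of ce11 (RefSeq sequence of the same assembly, WBcel235), 5′ to 3′, centred on the summit, with the 21 bases at the summit in capitals. The windows are X:16275384-16275584 for sdc-1, X:14602790-14602990 for eor-2 and X:14853857-14854057 for the pair C27C12.1 and C27C12.4, and none overlapped a protein-coding transcript.
sdc-1: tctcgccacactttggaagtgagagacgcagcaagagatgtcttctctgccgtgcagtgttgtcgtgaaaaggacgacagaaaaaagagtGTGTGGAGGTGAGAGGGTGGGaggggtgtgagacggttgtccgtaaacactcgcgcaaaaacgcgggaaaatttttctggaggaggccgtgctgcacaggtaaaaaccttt
eor-2: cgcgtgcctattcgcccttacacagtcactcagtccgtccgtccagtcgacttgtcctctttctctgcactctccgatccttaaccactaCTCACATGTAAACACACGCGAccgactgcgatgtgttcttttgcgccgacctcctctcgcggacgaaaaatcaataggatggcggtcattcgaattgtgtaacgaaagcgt
C27C12.1/C27C12.4: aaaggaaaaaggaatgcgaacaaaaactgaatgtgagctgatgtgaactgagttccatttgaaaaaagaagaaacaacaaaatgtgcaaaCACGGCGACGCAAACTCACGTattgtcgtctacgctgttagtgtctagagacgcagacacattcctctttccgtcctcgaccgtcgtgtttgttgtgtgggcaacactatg

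The 3 windows were richer in G and C than most X promoter regions. The GC content was 51.7% at sdc-1, 52.2% at eor-2 and 43.8% at C27C12.1/C27C12.4, and 23, 18 and 83 of the 429 X regions, respectively, were at or above these values. The median was 34.8% over the X regions, 34.3% over the autosomal promoter regions and 37.3% over the autosomal promoter IDR peaks. The longest word common to all 3 windows on either strand was 6 bases long. There were 6 such words, and all were found in many other windows. They ranged from CTCACA, in 9.32% of X and 7.38% of autosomal promoter windows, to GAAAAA, in 61.8 and 70.9%.

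Of 6 short motifs searched on both strands of the same windows, none was present at the 3 IDR peaks. GCGCAGGG, the core of a motif of the sites that recruit the dosage compensation complex to X, was in 1 of the 429 X windows (0.233%) and in 0.0744% of the autosomal ones. CTGTTTCA, the motif upstream of many piRNA genes, was in 10 X windows (2.33%) and in 1.62% of the autosomal windows. TATAAA was in 25.9% against 23.8%, GAGAGAGA in 1.40% against 2.10% and CCGCCC in 4.66% against 4.73%. TTTCAG, the consensus of the 3′ splice site in C. elegans, was in 31.7% of the X windows and in 39% of the autosomal windows. These shares are descriptions without a test, and a window without these letters says nothing about the factor.

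The X promoter region of highest signal lay upstream of sdc-1, which encodes a zinc finger protein of sex determination and dosage compensation. Its region, X:16275346-16275621, had its summit 279 bp upstream of the 5′ end, outside any protein-coding gene, and held rank 1296 of the pooled list with a signal of 45.4. In replicate 1 it held rank 1447 with a signal of 16.6, and in replicate 2 rank 2088 with a signal of 25.1. Signal values have another scale in each list, so only ranks are set side by side. sdc-1 was the only X promoter IDR peak with an overlapping candidate in both replicates.

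The other two X promoter IDR peaks were each seen in a single replicate. The region upstream of eor-2 (X:14602752-14603027), a gene that acts with eor-1 in Ras and Wnt signalling, had its summit 127 bp upstream and held pooled rank 1593 with a signal of 41.0. It held rank 1117 in replicate 2 with a signal of 34.8 and had no overlapping candidate in replicate 1. The region between the divergent genes C27C12.1 and C27C12.4 (X:14853819-14854094) had its summit 195 and 129 bp upstream of them and held pooled rank 1670 with a signal of 39.9. It held rank 1553 in replicate 1 with a signal of 16.1 and had no overlapping candidate in replicate 2. On the autosomes 746 of the 757 promoter IDR peaks (98.5%) overlapped a candidate of both replicates, on X 1 of 3. The autosomal promoter IDR peaks began at rank 19 and those of X at rank 1296, so these shares are not matched for rank.

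The IDR peaks are the 1676 regions of highest pooled signal, so the rank and the share that passed are the same measure read in 2 ways. The lowest signal among them and the highest outside them were both 39.8. The 3 X regions just outside were Y59E1A.4, the divergent pair C31E10.5/C31E10.6, and sprr-2, a predicted G protein-coupled receptor gene. Y59E1A.4 held rank 1769 with a signal of 38.5 and a summit in an intron 477 bp downstream of the 5′ end. It held rank 998 in replicate 1 and rank 4152 in replicate 2. C31E10.5/C31E10.6 held rank 1840 with a signal of 37.6, and ranks 3281 and 2291 in replicates 1 and 2. The region at sprr-2 held rank 1972 with a signal of 36.1, rank 20577 in replicate 1 and rank 1834 in replicate 2. All 3 were candidates in both replicates, unlike eor-2 and C27C12.1/C27C12.4 just inside the list.

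Promoter regions of X reached the top of the list far less often than those of the autosomes. The share that were IDR peaks was 0.699% on X (3 of 429, exact Clopper-Pearson 95% interval 0.144 to 2.03%) and 11.3% on the autosomes (757 of 6723, 10.5 to 12%), a 16.1-fold difference. Over promoter regions of all nuclear chromosomes the share was 10.6%, and over all 30000 candidates 5.59%. The odds ratio of X against the autosomes was 0.0555 (Woolf 95% interval 0.0178 to 0.173), with an adjusted p = 4.49e-17 by a 2-sided Fisher's exact test, Benjamini-Hochberg over 21 tests. The p treats regions as independent and describes these 2 pooled replicates with their shared control, not a spread between animals. The odds ratio moved by more than 1.5 times, and stayed below 1, with a window of 1000 bp (0.130), with regions at short RNA genes kept (0.240), in each replicate alone (0.148 and 0.0971), among regions found in both replicates (0.0349) and with the 838 IDR peaks of highest signal, which held no X promoter region (0.0216).

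No single autosome carried the difference. The share of promoter regions that were IDR peaks was 11.1% on I (162 of 1465), 12.2% on II (146 of 1196), 12.6% on III (185 of 1465), 11.4% on IV (156 of 1371) and 8.81% on V (108 of 1226). The odds ratio of X against a single autosome lay between 0.0487, for III, and 0.0729, for V. The 5 Fisher's exact tests gave adjusted p from 2.55e-17 to 2.60e-11 (Benjamini-Hochberg over 5). The X interval ends below the lower bound of every autosome, the lowest of which was 7.28% on V.

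**Figure D1:**
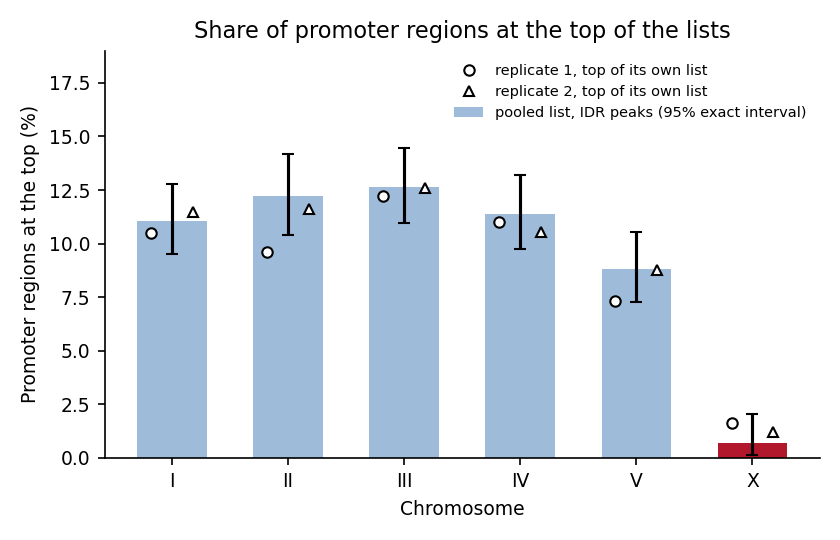
Share of protein-coding promoter regions at the top of the list (y axis, percent) by chromosome (x axis); bars are IDR peaks of the pooled list with exact 95% intervals, circles and triangles the top 1676 regions of replicates 1 and 2 in their own lists. The X bar stands at 0.699% and the X replicates at 1.64 and 1.19%, while the autosomal bars run from 8.81 to 12.6%.

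Each replicate showed the difference in its own list, with the 1676 regions of highest signal taken as the top. In replicate 1, 9 of 549 X promoter regions (1.64%) and 664 of 6556 autosomal ones (10.1%) were in the top, against 9.47% of its promoter regions in all. In replicate 2 the counts were 6 of 504 (1.19%) and 744 of 6743 (11.0%), against 10.3% in all. Both X shares were below both autosomal shares, and the mean was 1.41% ± 0.317 (SD, n = 2) on X and 10.6% ± 0.640 (SD, n = 2) on the autosomes. The odds ratios were 0.148 (0.0762 to 0.287, adjusted p = 2.75e-14) and 0.0971 (0.0433 to 0.218, adjusted p = 9.33e-17) by Fisher's exact test. The replicates were not independent of the pooled list, which was called from both, and they shared 1 control.

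The replicates put different X promoters at the top. The 9 of replicate 1 were F13C5.2 (rank 971), Y59E1A.4 (998), the AT-hook gene attf-5 (1371), the palmitoyltransferase gene dhhc-9 (1423), sdc-1 (1447), the transthyretin-like gene ttr-31 (1533), C27C12.1/C27C12.4 (1553), ZC506.1 (1558) and the heme transporter gene hrg-1 (1566). The 6 of replicate 2 were eor-2 (1117), M03F4.6 (1507), ccd-5/F52H2.1 (1560), C04F6.9 (1581), the phospholipid phosphatase gene plpp-1.3 (1659) and the kinesin gene klp-13 (1666). None of the 9 or the 6 was in the top 1676 of the other replicate, and 4 of the 9 and 3 of the 6 had no overlapping candidate there. These genes are named in full because each list is short, and were chosen after their values were seen. For comparison, 422 of the 6723 autosomal promoter regions of the pooled list overlapped the top 1676 of both replicates, and 0 of the 429 X regions did. The top of replicate 1 was overlapped by 678 autosomal and 7 X regions, and that of replicate 2 by 770 and 4. With so few X regions in either top, the 0 was not tested.

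X promoter regions were found again less often in general. Of the 429, 184 (42.9%) overlapped a candidate of replicate 1, 279 (65.0%) one of replicate 2, 98 (22.8%) both and 64 (14.9%) neither. On the autosomes 62.4% overlapped a candidate of replicate 1, 78.8% one of replicate 2, 48.7% both (3272 of 6723) and 7.42% neither. The odds ratio of being found in both was 0.312 (0.248 to 0.393), adjusted p = 4.94e-26 by Fisher's exact test (over 4 tests of place and overlap). Overlap was rarer far down the list on X and on the autosomes, and the odds ratio of 0.312 is not adjusted for rank. The median pooled rank was 16491 for the X regions and 10821 for the autosomal ones. At pooled ranks 1677 to 5000, 68.2% of X and 83.9% of autosomal promoter regions were in both replicates, and at ranks 25001 to 30000 the shares were 10.8 and 13.3%. Among regions in both, Spearman's rho between the ranks was 0.121 over 98 X regions and 0.527 over 3272 autosomal regions. Of the regions in both, 1 on X and 746 on the autosomes were IDR peaks, so the rhos cover unlike ranges of rank. These rhos are across regions of the same 2 libraries and carry no test.

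**Figure D2:**
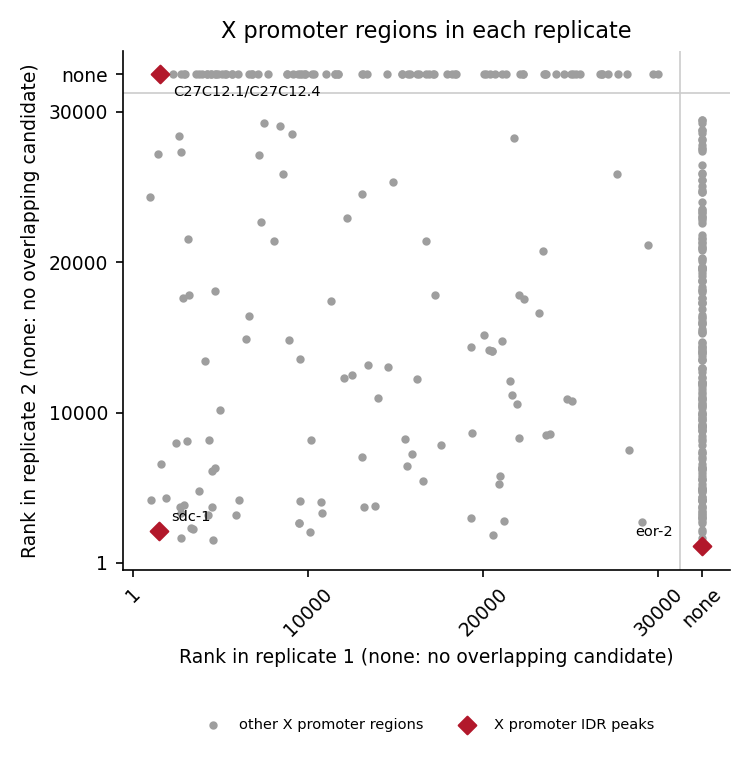
Rank by signal of each X promoter region in replicate 1 (x axis) and replicate 2 (y axis), 1 being the highest; regions without an overlapping candidate in a replicate are on the line marked none, and the 64 in neither list are not drawn. Diamonds are the 3 IDR peaks, of which sdc-1 alone has a rank in both replicates, at 1447 and 2088, and the other points are scattered over the plot.

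The deficit was graded, not limited to the IDR threshold. The signal of the 429 regions ran from 9.05 to 45.4 with a median of 12.9 (quartiles 10.6 and 16.9), and their ranks from 1296 to 29924 with a median of 16491. Autosomal promoter regions had a median signal of 15.7, a highest signal of 411 and a median rank of 10821. A randomly drawn X region ranked above a randomly drawn autosomal one in 36.7% of pairs, where equal ranks would give a value midway between 0 and 100%. The replicate lists gave 38.6 and 37.0%, with a mean of 37.8% ± 1.14 (SD, n = 2). The authors' −log10 q-value had a median of 0.276 on X, with a highest value of 3.42, and of 0.447 on the autosomes.

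**Figure D3:**
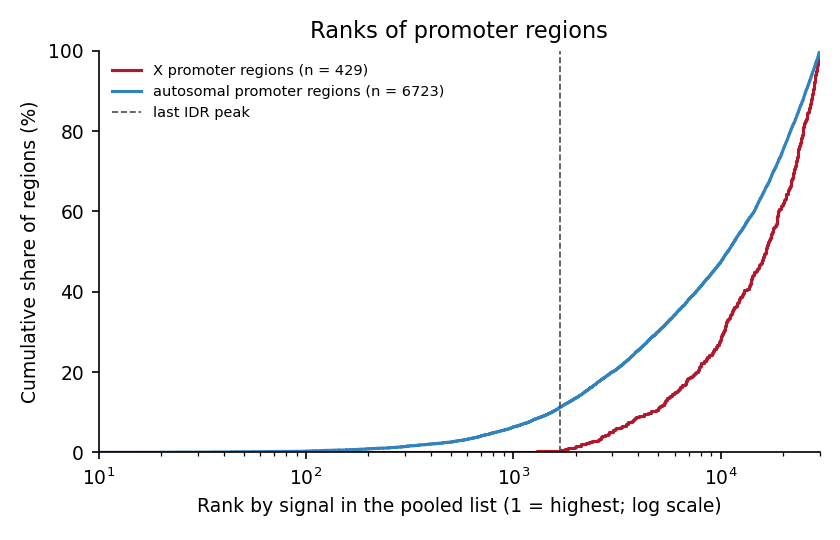
Cumulative share of promoter regions (y axis, percent) against rank by signal in the pooled list (x axis, log scale, 1 being the highest) for X (429 regions) and the autosomes (6723 regions), with a dashed line at the last IDR peak, rank 1676. The X curve leaves 0 at rank 1296 and stays below the autosomal curve, reaching 11.0% at rank 5000 where the autosomes reach 30.1%.

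By rank band, the share of promoter regions that lay on X rose from the top of the list to its end. It was 0.395% at ranks 1 to 1676 (3 of 760), 3.35% at 1677 to 5000 (44 of 1312), 6.06% at 5001 to 10000 (75 of 1238), 7.09% at 10001 to 15000, 7.14% at 15001 to 20000, 8.66% at 20001 to 25000 and 9.28% at 25001 to 30000 (83 of 894). X holds 13.7% of the 19973 protein-coding genes, so the share stayed below the gene share in every band. Regions at neither a promoter nor a short RNA gene were on X in 8.12% at ranks 1 to 1676, 6.31% in the next band and 11.4% in the last, all above the share of promoter regions in the same band. Such regions can include piRNA and miRNA genes, which do not count as short RNA genes here.

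**Figure D4:**
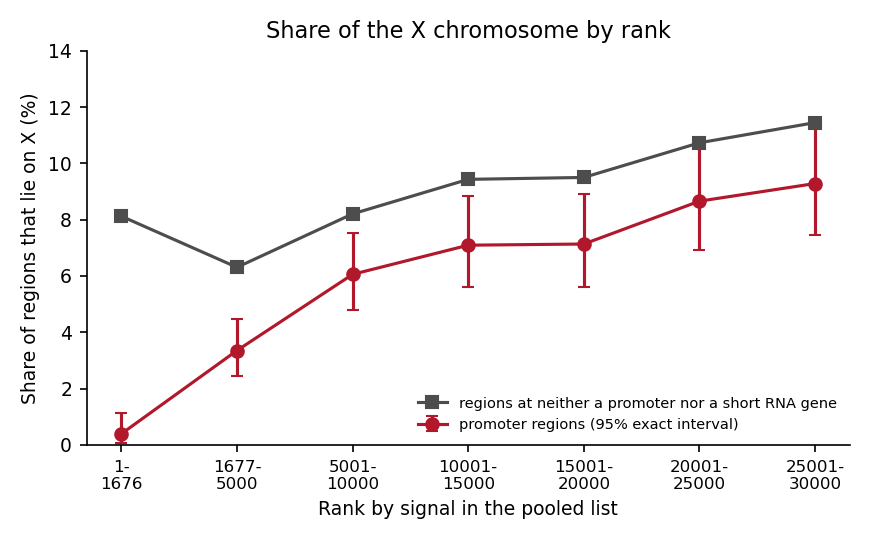
Share of regions that lie on X (y axis, percent) by rank band in the pooled list (x axis), for promoter regions with exact 95% intervals and for regions at neither a promoter nor a short RNA gene (piRNA and miRNA genes not counted as short RNA genes). The promoter line climbs from 0.395 to 9.28%, and the other line starts at 8.12% and ends at 11.4%.

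The shortfall among IDR peaks on X was larger at promoters than in the other region classes, each taken as a whole. X promoter regions were 429 of 2841 X candidates and 3 of 194 X IDR peaks (1.55%), whereas promoters made up 52.0% of the 1456 autosomal IDR peaks. Regions at short RNA genes passed more often on X (162 of 391, 41.4%) than on the autosomes (371 of 1333, 27.8%), with an odds ratio of 1.83 (1.45 to 2.32, adjusted p = 7.59e-07, Fisher's exact test). Regions at tRNA genes made up 209 of the 391 on X and 263 of the 1333 on the autosomes. Of these, 154 (73.7%) and 163 (62.0%) were IDR peaks. The short RNA class thus differed in make-up between X and the autosomes, and the odds ratio of 1.83 does not adjust for it. Regions at neither a promoter nor a short RNA gene can include piRNA and miRNA genes, which were not separated out. These regions gave 29 of 2021 (1.43%) on X and 328 of 19075 (1.72%) on the autosomes, with an odds ratio of 0.832 (0.568 to 1.22) and an adjusted p = 0.414 by the same exact test. The odds ratio at promoters was 0.0667 times that at such other regions (95% interval 0.0201 to 0.222, from the standard errors of the log odds ratios). It was 0.0303 times that at short RNA genes (0.00947 to 0.0967), again without adjustment for the share of tRNA genes. Both intervals exclude 1.

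In the broader part of the list X promoters still stood above other X regions, by a smaller margin than on the autosomes. Of the X promoter regions 195 (45.5%) were in the upper 15000 ranks, against 38.9% of other X regions, with an odds ratio of 1.31 (1.06 to 1.62, adjusted p = 0.0147, Fisher's exact test). On the autosomes the shares were 61.6 and 45.2%, with an odds ratio of 1.95 (1.84 to 2.06). The ratio between the odds ratios was 0.672 (95% interval 0.541 to 0.836).

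Counted by gene, 4 of the 2731 protein-coding genes of X (0.146%) had an IDR peak at the promoter, namely sdc-1, eor-2, C27C12.1 and C27C12.4, against 1016 of 17242 autosomal genes (5.89%). The odds ratio was 0.0234 (0.00877 to 0.0626, adjusted p = 3.36e-59, Fisher's exact test). A gene whose only IDR peak lay near a short RNA gene was counted as having none. With such regions kept, 19 X genes (0.696%) and 1168 autosomal genes (6.77%) had an IDR peak, an odds ratio of 0.0964. X genes also entered the candidate list less often, 418 of them (15.3%) against 6222 autosomal genes (36.1%), with an odds ratio of 0.320 (0.287 to 0.357, adjusted p = 1.23e-112, Fisher's exact test). Divergent and clustered genes share a region, so genes are not independent here. Along the chromosome, promoter regions numbered 24.2 per Mb of X and from 58.6 (V) to 106 (III) per Mb of the autosomes. Candidates of every class were also sparser on X, at 160 per Mb against 222 (V) to 420 (III).

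Divergent promoters, where genes on both strands start within 500 bp of the summit and point away from each other, were scarce among the X regions. They were 12 of 429 (2.80%) on X and 678 of 6723 (10.1%) on the autosomes, an odds ratio of 0.257 (0.144 to 0.458, adjusted p = 3.61e-08, Fisher's exact test). How often all genes of X and of the autosomes are arranged in this way was not counted, so the part of gene layout was not tested. On the autosomes 35.7% of divergent and 8.52% of one-sided promoter regions were IDR peaks. On X the counts were 1 of 12 (C27C12.1/C27C12.4) and 2 of 417, with an odds ratio of 18.9 whose interval, 1.59 to 224, is wide (adjusted p = 0.0859, Fisher's exact test). The ratio of this odds ratio to the autosomal one was 3.17 (95% interval 0.265 to 37.8). With a window of 250 bp the comparison of divergent with one-sided X regions passed the threshold of 0.05 in the unadjusted exact test (p = 0.00889). It then set 1 of 1 divergent regions against 1 of 224 one-sided ones. With regions at short RNA genes kept it also passed (p = 0.0102, unadjusted exact test), on 3 of 15 against 13 of 476. Among one-sided regions alone the odds ratio of X against the autosomes was 0.0517 (0.0129 to 0.208, adjusted p = 7.17e-13, exact test). Among divergent regions alone it was 0.164 (0.0210 to 1.28, adjusted p = 0.0722, exact test), and 12 regions cannot give a narrow interval.

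X promoter regions lay around the 5′ end much as the autosomal ones did. The summit was upstream of the nearest 5′ end in 56.6% of X and 58.3% of autosomal regions (odds ratio 0.933, 0.766 to 1.14, adjusted p = 0.512, Fisher's exact test), and outside protein-coding genes in 52.2 and 48.7% (adjusted p = 0.218). Summits in exons were fewer on X, 22.8% against 29.6% (odds ratio 0.704, 0.558 to 0.887, adjusted p = 0.00514, exact test). Autosomal promoter IDR peaks had another layout from either, with 89.0% upstream and 84.3% outside genes, and all 3 X IDR peaks were of that kind. Among regions outside genes, 3 of 224 on X (1.34%) and 638 of 3275 on the autosomes (19.5%) were IDR peaks. In exons the counts were 0 of 98 and 80 of 1991, and in introns 0 of 107 and 39 of 1457.

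The ribosomal protein, germline and translation factor lists had the highest autosomal shares of promoter IDR peaks and held 2, 7 and 3 X genes. Over all protein-coding genes, with regions at short RNA genes left out, 0.146% on X and 5.89% on the autosomes had a promoter IDR peak. A candidate was present at 15.3 and 36.1%. Counts of 0 peaks among a few X genes therefore do not set a family apart from other X genes. Of 79 autosomal ribosomal protein genes 42 (53.2%) had a promoter IDR peak. The X holds 2, both with a candidate: rpl-11.2 at rank 3137 with a signal of 27.6 (rank 3047 in replicate 1, 8084 in replicate 2), and rpl-25.1 at rank 24973. Of 57 autosomal genes of the germline and early embryo list 23 (40.4%) had an IDR peak. Of its 7 X genes, among them meg-1 to meg-4, which act in germ granules, only cpg-19, of the chondroitin proteoglycan family, had a candidate, at rank 17515. Translation factors had 12 of 35 on the autosomes and 0 of 3 on X, where the eIF4E gene ife-2 held rank 7944.

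Of the 13 lists with genes on X, the list of X signal and dosage compensation genes held the single X promoter IDR peak among listed genes, sdc-1. The other X genes of that list, xol-1, sdc-2, sex-1, fox-1 and ceh-39, which read the number of X chromosomes or act on that signal, had no promoter candidate. Of its 6 autosomal genes 4 had a candidate and 0 an IDR peak. Over all lists, 29 of 134 X genes (21.6%) had a candidate and 1 an IDR peak, against 401 (44.4%) and 122 (13.5%) of 904 autosomal genes. Of all X protein-coding genes 15.3% had a candidate and 0.146% an IDR peak, and of all autosomal ones 36.1 and 5.89%. All these counts leave out regions at short RNA genes. A gene on more than 1 list was counted once.

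The V-ATPase and chaperone lists have 3 and 5 genes on X. Of the V-ATPase genes, which encode parts of the proton pump of acidic organelles, vha-20 and vha-15 had a candidate, at ranks 4257 and 5349, and vha-12 had none. Of the chaperone genes only hsp-3, which encodes a BiP-type chaperone of the endoplasmic reticulum, had a candidate, the higher of its regions at rank 5016, while dnj-7, dnj-14, hsp-25 and hsp-43 had none. These 3 ranks are above the upper quartile of the X promoter regions, 9172, and none was an IDR peak. On the autosomes 13 of 17 V-ATPase genes had a candidate and 2 an IDR peak, and 30 of 54 chaperone genes had a candidate and 8 an IDR peak. Mitochondrial ribosomal proteins, aminoacyl-tRNA synthetases and the proteasome have no gene on X in these lists. No candidate was listed at the 4 histone genes or the 5 vitellogenin genes (yolk proteins made in the intestine) of X, and over all X genes the share with a candidate was 15.3%. On the autosomes 13 of 68 histone genes and 0 of 1 vitellogenin genes had one.

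With regions at short RNA genes left out, no X gene of the nuclear hormone receptor, cuticle collagen, muscle, homeodomain and neuronal lists had a promoter IDR peak. Under that rule the same held for all but 0.146% of X genes, and 15.3% of all X genes had a candidate. Nuclear hormone receptors had a candidate at 10 of 23 X genes, led by nhr-1 at rank 3892 with a signal of 24.7, and at 62 of 246 autosomal genes, with 0 IDR peaks in either. Cuticle collagens had one at 6 of 30 X genes, led by dpy-8 at rank 9752, and at 18 of 135 autosomal genes, also with 0 IDR peaks in either. Muscle genes had one at 3 of 9 X genes, led by the actin gene act-4 at rank 11083, and at 1 of 10 autosomal genes. Homeodomain genes had one at 1 of 22 X genes, ceh-41 at rank 12588, and at 11 of 53 autosomal genes, of which 2 had an IDR peak. Neuronal genes had one at 1 of 16 X genes, unc-1 at rank 24105, and at 1 of 8 autosomal genes. With lists of this size the candidate counts are descriptions and were not tested. The gene snpc-1.3 itself is on V, and its promoter held a candidate at rank 6151 that was not an IDR peak.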

How the data were processed

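The data were deposited peak lists on ce11 from 2 biological replicates. Per the deposited text notes, the authors called the regions of each replicate against 1 control, called the pooled regions from both against the same control, and derived the IDR peaks from all 3 lists. Aligner, caller, IDR threshold and number of reads: not given in the sources used here. Depth is therefore unknown. The deposited signal value, in the unit of the authors' caller, was used to rank regions within a list. The deposited −log10 q-value was used as a description. Lists on ce10 were not used.

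Summits were placed on the Ensembl release 115 annotation of WBcel235, with 1-based positions and a RefSeq sequence of the same assembly. Regions of different lists were matched by an overlap of at least 1 bp. Python 3.11.15, pandas 2.3.3, numpy 2.4.6 and scipy 1.17.1 gave 2-sided Fisher's exact tests with Woolf 95% intervals (0.5 added where a cell was 0), exact Clopper-Pearson intervals (counting error only) and Benjamini-Hochberg adjustment over 21 tests, over 5 for single autosomes and over 4 for places and overlap; differences of odds ratios are given with their intervals. Classification was tested on 400 simulated summits, of which 0 were wrong. The members, gene lists and motifs were chosen with earlier results of these data known, and the tests of region classes, places and replicate overlap were added to the planned ones. Named were the 12 X promoter regions of highest signal in the IDR list, of which only 3 exist, the 3 just inside and the 3 just outside that list, list members by rank, and snpc-1.3. Alternatives were other windows, annotations, overlap rules, RNA gene filters, peak numbers and each replicate alone.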

Additional observations from a re-analysis of the deposited data

How the results depend on the processing

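X promoter regions were IDR peaks less often than autosomal ones under all 16 alternatives, with odds ratios from 0.0216 to 0.240, and so were X genes under all 11, from 0.00645 to 0.0964. With piRNA and miRNA genes left out as well, 3 of 428 X and 739 of 6529 autosomal promoter regions were IDR peaks, an odds ratio of 0.0553. Against single autosomes, windows of 250 and 1000 bp gave odds ratios from 0.0528 to 0.171. Left-out replicates gave 0.0971 to 0.148 for regions, 0.0424 to 0.0698 for genes, 5.04 to 5.50 for divergent against one-sided X regions and 37.0 to 38.6% for the share of pairs in which an X region ranked higher. That share was 34.5% with a window of 250 bp, 39.5% with 1000 bp and 38.7% with regions at short RNA genes kept, against 36.7%, and the cause of these shifts was not tested. The odds ratio of divergent against one-sided X regions, 18.9, became 447 for a 250 bp window and 8.90 if regions at short RNA genes were kept. It rests on 1 to 3 divergent peaks, and the 838 highest IDR peaks gave no value, having none on X. With 838 top regions per replicate the odds ratios were 0.0178 and 0.0187, and with 5028 they were 0.373 and 0.340. The alternatives outside genes (0.0561), in both replicates and without chromosome V (0.0526) were chosen after seeing the data. No paired analysis was possible because there was 1 group. Unknown depth leaves the reason for a region's absence from a replicate list untested.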

Other observations

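Another 62 X regions had a summit within 500 bp of a protein-coding 5′ end and also a short RNA gene within 250 bp. They were left out by the rule, and 13 of them were IDR peaks, against 3 of the 429 kept. With such regions kept on all chromosomes, 16 of 491 X regions (3.26%) and 871 of 7079 autosomal regions (12.3%) were IDR peaks. The X regions at tRNA genes were IDR peaks in 154 of 209 cases (73.7%), and the autosomal ones in 163 of 263 (62.0%). The odds ratio was 1.72 (1.16 to 2.55, adjusted p = 0.00958, Fisher's exact test).

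The 3 X promoter IDR peaks lay in the right part of the chromosome when X was cut into 3 pieces of equal length. The left piece held 164 promoter regions and 871 genes, the middle 115 and 976, and the right 150 and 884. The best ranks were 1769, 2114 and 1296, and the median ranks 16668.5, 15653 and 16609. These counts carry no test.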
